A study of Mus musculus with 6 samples.

Results

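The endothelin system and the endothelin-converting enzyme-like gene Ecel1 were examined in RNA from whole mouse retinas after optic nerve crush (ONC). The 8 genes were 3 ligand genes (Edn1, Edn2 and Edn3), 2 receptor genes (Ednra and Ednrb) and 3 genes of zinc peptidases (Ece1, Ece2 and Ecel1), found by their symbols among 35485 genes. They were chosen with their measured ONC and sham values known, and Ecel1 in particular was selected on its change after ONC. Their changes are therefore given as a description, with an error and without a p-value. Where the text counts how many of them passed the call used for all genes, nothing is drawn from the count.

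All mice were wild type C57BL/6 males, 12 weeks of age, and retinas were harvested 2 days after surgery. ONC was a forceps crush of 10 seconds at 2 mm from the eye, and sham mice had the same surgery without the crush. There were 3 ONC samples and 3 sham samples, and each combined a set amount of RNA from 6 retinas of 6 mice. The retina also keeps its vessels and glia in such samples, so fewer cells of a type and less RNA per cell cannot be told apart.

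Endothelins are short peptides cut from long precursors, first by furin-type convertases and then by endothelin-converting enzymes. They act through the receptors that Ednra and Ednrb encode, which couple to G proteins; in vessels the A receptor drives contraction of smooth muscle, while in the retina the B receptor is best known in glia. Ecel1, also called damage-induced neuronal endopeptidase, belongs to the same M13 family of membrane zinc peptidases as the converting enzymes. It is named for its likeness to them and is not known to convert endothelins.

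The coding bases of the mature peptides are shown because they make plain how alike the 3 ligands are, while their retinal levels differed widely. Each line gives 63 bases, 5′ to 3′, from the GENCODE M1 transcripts on NCBIM37, and the capitals mark the codons of the 4 cysteines, which form the disulfide bridges of the peptide.
Edn1: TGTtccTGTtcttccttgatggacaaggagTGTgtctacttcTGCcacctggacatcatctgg
Edn2: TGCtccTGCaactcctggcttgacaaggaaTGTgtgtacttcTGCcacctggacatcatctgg
Edn3: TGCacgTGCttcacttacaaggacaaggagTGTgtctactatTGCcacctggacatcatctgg
The last 21 bases were the same in all 3 genes. In translation, Edn1 and Edn2 shared 18 of 21 residues (85.7%), and Edn3 shared 15 of 21 residues (71.4%) with each of them. The whole precursors, with the peptides included, were less alike, with 37.4% identity between those of Edn1 and Edn2.

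For the peptidases, the bases around the zinc-binding site are shown, since this site is what Ecel1 has in common with the enzymes for which it is named. Capitals mark the codons of the HExxH motif, in which the histidines hold the zinc ion and the glutamate takes part in catalysis, and the bases come from the same transcripts.
Ece1: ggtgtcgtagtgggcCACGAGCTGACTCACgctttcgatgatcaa
Ece2: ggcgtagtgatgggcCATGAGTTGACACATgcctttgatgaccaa
Ecel1: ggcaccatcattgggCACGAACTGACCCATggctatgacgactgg
Mme: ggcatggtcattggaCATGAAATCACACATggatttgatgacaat
The motif occurred 1 time in each protein, at residues 606 to 610 of 769 in Ece1, 747 to 751 of 910 in Ece2 and 612 to 616 of 775 in Ecel1. Over the whole aligned protein Ece1 and Ece2 were 62% identical. Ecel1 was 39% identical to Ece1 and 38.8% identical to Ece2. Its identity was 38% to Mmel1, another M13 peptidase, and 34.7% to Mme, the enkephalin-degrading peptidase neprilysin. With Phex and Kel, also of this family, it was 32.7% and 32.1%. Ece1 was 40.6% identical to Mme and 40.8% to Mmel1, so the likeness of Ecel1 to Ece1 was not particular to that pair.

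Levels of genes were compared as RPKM, the exon reads of a gene divided by its exon length and by all reads on genes. Changes are log2 fold changes of ONC over sham from TMM-normalized exon reads, with the standard error (SE) and the 95% interval of the edgeR fit. The sham samples held 17343945 to 18349331 exon reads each and the ONC samples 20019818 to 20358008. Exon reads made up 70.9% to 76.6% of the reads on genes in the sham samples and 78.5% to 80.4% in the ONC samples. The 9 photoreceptor markers summed to 17749 to 20017 RPKM in every sample, as a retinal sample should have. Sham replicate 1 stood apart from the other sham samples in lens markers (41.7 against 6.12 and 8.9 RPKM in sum), and results that rest on it are also given without it. A mean RPKM above 0.3 in either group was needed for a gene to enter the fit, and 6 of the 8 genes passed it. Edn3 and Ednra did not pass, and their changes come from the same fit without the filter.

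**Figure D1:**
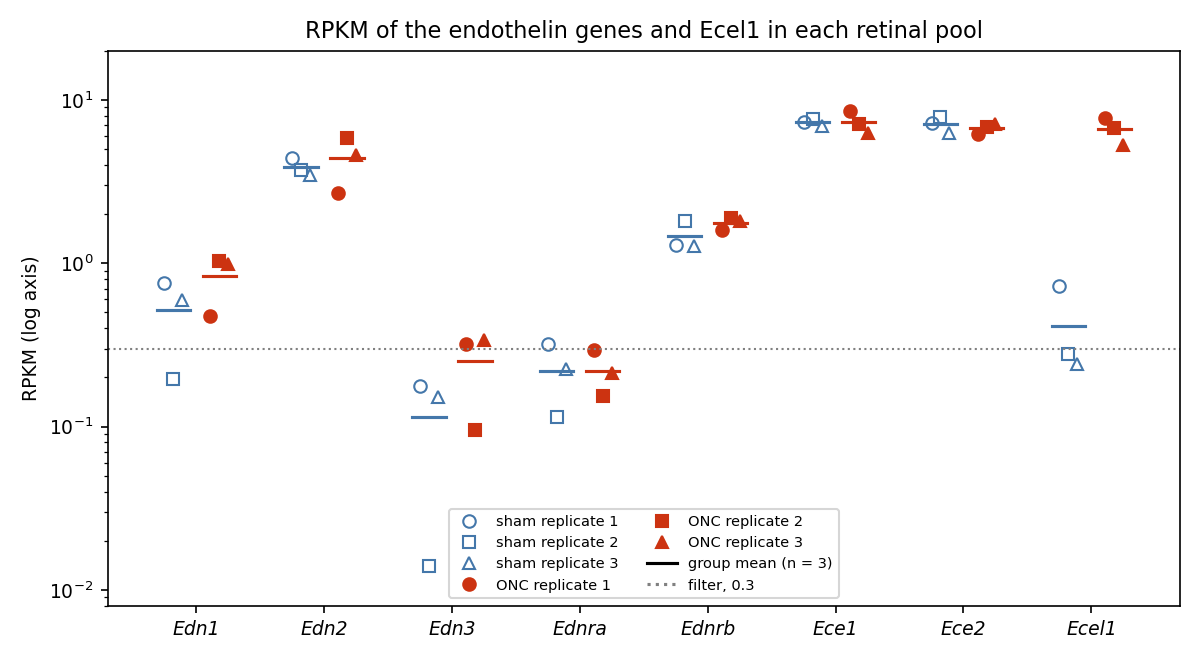
RPKM (log axis) of the 8 genes in each sample, sham in open blue and ONC in filled red symbols, with horizontal bars for group means (n = 3) and a dotted line at the filter of 0.3. The 3 ONC values of Ecel1 lie between 5.32 and 7.79, above all 3 sham values, while the values of the other 7 genes overlap between the groups.

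Of the ligands, Edn2 was the most abundant in every sample. Edn2 (chromosome 4, 120161424 to 120167360, GRCm38), whose peptide is a strong constrictor of vessels and whose transcript is known to rise in stressed photoreceptors, had RPKM values of 4.41, 3.73 and 3.48 in the sham samples and of 2.7, 5.85 and 4.62 in the ONC samples. The ONC values lay on both sides of the sham values, with ONC replicate 1 the lowest of all 6 and ONC replicate 2 the highest. The mean RPKM was 3.87 ± 0.479 (SD, n = 3) in sham and 4.39 ± 1.59 (SD, n = 3) in ONC. The log2 fold change of Edn2 was 0.05 (SE 0.23, 95% interval -0.43 to 0.54), or 0.74 to 1.46 times the sham level. Leaving out 1 ONC sample moved it between -0.19 and 0.30, without replicate 2 and without replicate 1 respectively.

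Edn1 (chromosome 13, 42301270 to 42307989, GRCm38), the main endothelin of vascular endothelium, was read from 41, 11 and 34 exon reads in the sham samples and from 28, 60 and 60 in the ONC samples. As RPKM, these were 0.761, 0.196 and 0.593 in sham and 0.472, 1.03 and 0.987 in ONC. ONC replicates 2 and 3 lay above all sham values, but ONC replicate 1 lay below those of sham replicates 1 and 3. The log2 fold change was 0.55 (SE 0.45, 95% interval -0.39 to 1.49), and it depended on single samples, falling to 0.15 without sham replicate 2 and rising to 0.89 without sham replicate 1. At these read numbers the interval reached from 0.76 to 2.82 times the sham level.

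Edn3 (chromosome 2, 174760773 to 174784042, GRCm38), whose peptide is best known for its role with the B receptor in neural crest cells, was close to the lower limit of the data. It had 12, 1 and 11 exon reads in the sham samples and 24, 7 and 26 in the ONC samples. Its RPKM ranged from 0.014 to 0.176 in sham and from 0.095 to 0.338 in ONC, with the lowest ONC value between the sham values. The log2 fold change was 1.01 (SE 0.75, 95% interval -0.47 to 2.49). It was 0.48 without sham replicate 2, which had the single read.

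The order of the ligands was Edn2, Edn1 and Edn3 in 6 of 6 samples. By RPKM, Edn2 exceeded Edn1 by 4.68 to 19 times and Edn1 exceeded Edn3 by 1.47 to 14 times. Edn2 made up 82.5%, 94.7% and 82.4% of the summed RPKM of the 3 ligands in the sham samples and 77.3%, 83.9% and 77.7% in the ONC samples. The 2 groups overlapped in this share, and the highest sham value came from replicate 2, in which Edn1 and Edn3 were both at their lowest.

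Of the 2 receptors, Ednrb was the more abundant in every sample. Ednrb (chromosome 14, 103814625 to 103844173, GRCm38), the receptor that binds all 3 endothelins with like affinity, had RPKM values of 1.3, 1.81 and 1.28 in sham and of 1.59, 1.9 and 1.82 in ONC. ONC replicates 2 and 3 exceeded the 3 sham values, the latter only just, and ONC replicate 1 did not. The mean RPKM was 1.47 ± 0.298 (SD, n = 3) in sham and 1.77 ± 0.159 (SD, n = 3) in ONC, and the log2 fold change on TMM-normalized reads was 0.15 (SE 0.18, 95% interval -0.22 to 0.52).

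Ednra (chromosome 8, 77663029 to 77724452, GRCm38), the receptor selective for the Edn1 and Edn2 peptides, gave 27, 10 and 20 exon reads in sham and 27, 14 and 20 in ONC. The group means of RPKM were the same, 0.22 ± 0.104 (SD, n = 3) in sham and 0.22 ± 0.0698 (SD, n = 3) in ONC. The log2 fold change of -0.12 (SE 0.58, 95% interval -1.26 to 1.02) left changes of 2-fold in either direction within the error. Intron reads of Ednra numbered 8, 10 and 11 in the sham samples and 0, 0 and 0 in the ONC samples, and the log2 fold change was -0.66 when intron reads were counted. RefSeq places long noncoding RNAs over the Ednra locus, and the library kit was not stated to keep strand, so these few reads cannot be assigned to the receptor gene.

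Ednrb exceeded Ednra by 4.05 to 15.7 times in RPKM over the 6 samples. It made up 86.5 ± 7.01% (SD, n = 3) of the receptor RPKM in sham and 88.9 ± 4.06% (SD, n = 3) in ONC, a difference smaller than the spread in either group.

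**Figure D2:**
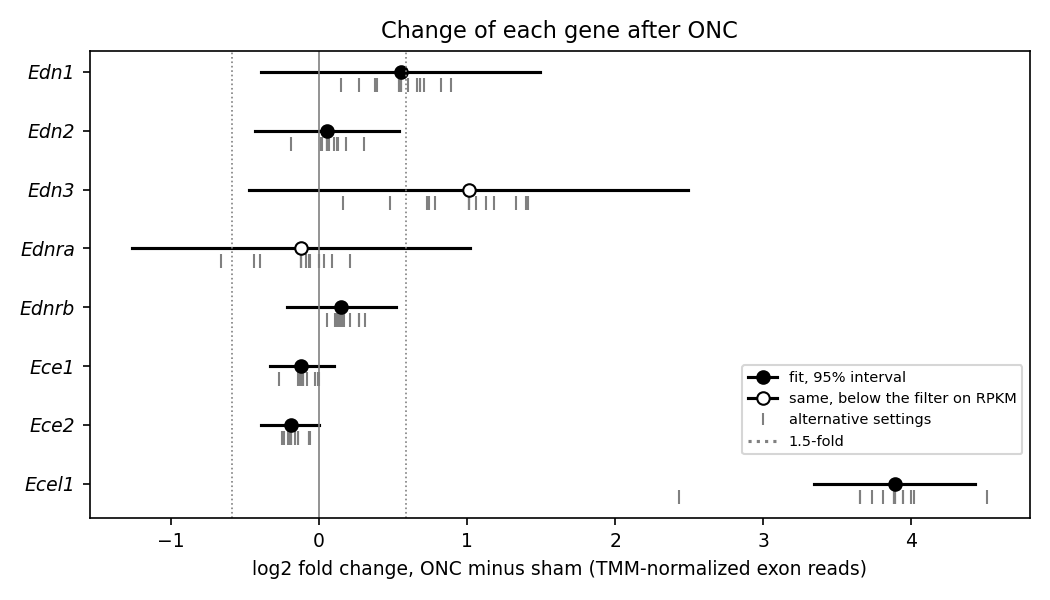
Log2 fold change of each gene, ONC minus sham, with 95% intervals (n = 3 in each group), open circles for the 2 genes below the filter on RPKM, grey ticks for the alternative settings and dotted lines at 1.5-fold. Ecel1 stands at 3.89, and the intervals of the other 7 genes include 0 or end at it.

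Ece1 and Ece2, the peptidases that release mature endothelins from their intermediates, were the most abundant of the 8 genes in the sham retina. Ece1 (chromosome 4, 137862237 to 137965229, GRCm38) had RPKM values of 7.33, 7.59 and 6.94 in sham and of 8.53, 7.08 and 6.29 in ONC. The ONC values enclosed the sham values, and the means were 7.29 ± 0.329 (SD, n = 3) and 7.3 ± 1.13 (SD, n = 3). The log2 fold change of Ece1 was -0.12 (SE 0.10, 95% interval -0.33 to 0.10), which leaves at most a fall to 0.79 or a rise to 1.07 of the sham level. With reads scaled to all reads on genes, as RPKM is, it was 0.00.

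Ece2, an enzyme of neuroendocrine cells that works at acidic pH, had RPKM values of 7.21, 7.83 and 6.24 in sham and of 6.22, 6.83 and 7.16 in ONC. The groups overlapped, and the log2 fold change was -0.19 (SE 0.09, 95% interval -0.39 to 0.00). It came closer to 0, at -0.07, when scaled to all reads on genes. The gene model counted as Ece2 (22 exons, chromosome 16, 20611601 to 20645915, GRCm38) also spans Eef1akmt4 and its readthrough transcript with Ece2, while RefSeq starts Ece2 itself at 20629851. Its exon reads may thus include those of the neighboring methyltransferase, and its intron reads may include those of Camk2n2, which lies inside the span.

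The 2 converting enzymes were near each other in level, with Ece1 at 50.8 ± 1.73% (SD, n = 3) of their summed RPKM in sham and 51.8 ± 5.57% (SD, n = 3) in ONC. Ece1 was the higher one in 4 of 6 samples, so that their order was not fixed within the spread.

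Ecel1 had the largest difference of the 8 genes, and the paper had already listed it among the genes most raised in these samples. It had 45, 18 and 16 exon reads in the sham samples and 532, 454 and 372 in the ONC samples. As RPKM, these were 0.725, 0.278 and 0.242 in sham and 7.79, 6.76 and 5.32 in ONC. The lowest ONC value, 5.32, lay far above the highest sham value, 0.725, and the mean RPKM went from 0.415 ± 0.269 (SD, n = 3) to 6.62 ± 1.24 (SD, n = 3). The log2 fold change was 3.89 (SE 0.26, 95% interval 3.34 to 4.43), or 14.79-fold (95% interval 10.11 to 21.63). Without sham replicate 1, the highest of the sham samples, the log2 fold change was 4.51, or 22.78-fold. This lies above the upper end of the 95% interval from all 6 samples.

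Among all 13670 genes tested, Ecel1 ranked 10 by log2 fold change. A gene was called when edgeR's adjusted p was under 0.1 and it differed by more than 1.5-fold. By this call 1 of the 6 genes tested here was called, against 1.66% of all tested genes. In the higher direction 0.827% of all tested genes were called, and Ecel1 ranked 5 among these 113. In the lower direction 0.834% were called and none of the 6. Ecel1 was also the only one of the 8 whose groups did not overlap in RPKM, which held for 28.8% of all tested genes. Ecel1 was selected on this change, so these counts only describe it.

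In position among the retinal transcripts, Ecel1 moved from the low end to the middle. By mean RPKM it exceeded 5.61% of the tested genes in sham and 45.8% in ONC. Over the same comparison Ece1 exceeded 51% and 48.5% of the tested genes, and Ece2 50.2% and 46.3%.

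Within the 3 peptidase genes, Ecel1 made up 4.75%, 1.77% and 1.8% of the summed RPKM of Ece1, Ece2 and Ecel1 in the sham samples and 34.6%, 32.7% and 28.3% in the ONC samples. Each converting enzyme exceeded Ecel1 by 9.95 to 28.7 times in sham. In ONC the ratio of Ece1 to Ecel1 was 1.05 to 1.18, and that of Ece2 to Ecel1 was 0.799 to 1.35.

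**Figure D3:**
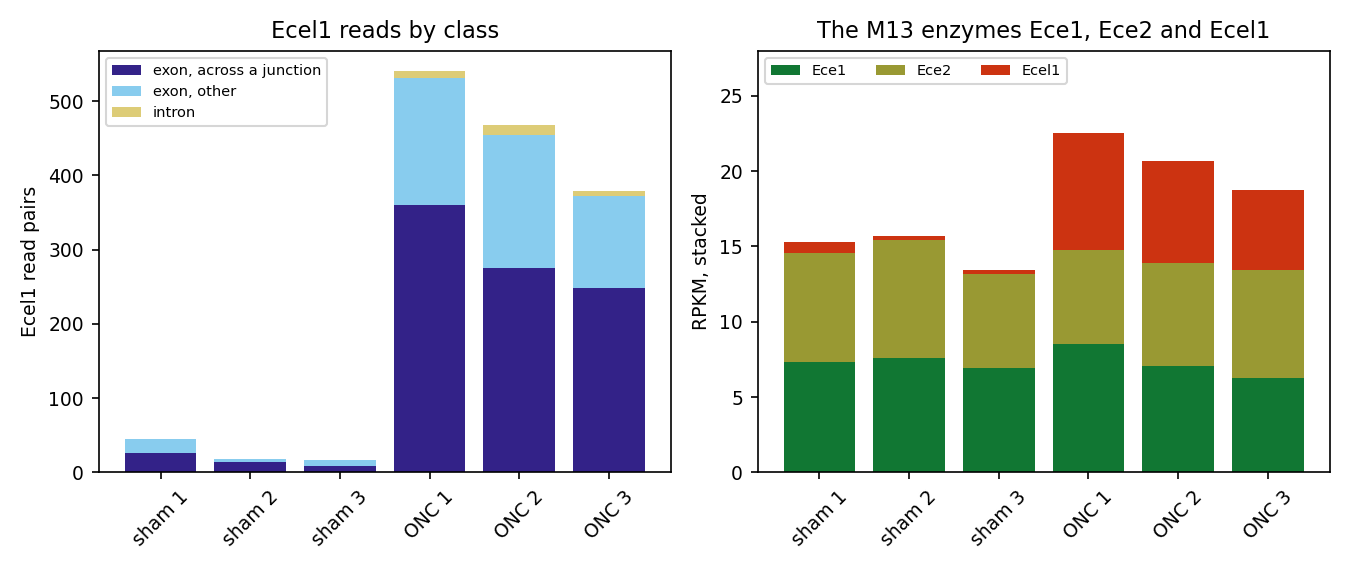
Left, read pairs counted on Ecel1 in each sample, as exon reads across a junction, other exon reads and intron reads; right, stacked RPKM of Ece1, Ece2 and Ecel1. Ecel1 exon reads go from 16 to 45 in sham to 372 to 532 in ONC, and Ecel1 takes 28.3% to 34.6% of the stacked RPKM in ONC.

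Most Ecel1 reads were spliced in both groups. Reads across an exon junction numbered 26, 14 and 8 in sham and 360, 275 and 249 in ONC, or 60.8% of the summed exon reads in sham and 65.1% in ONC. Intron reads numbered 0, 0 and 1 in sham and 9, 14 and 7 in ONC, which was 2.16% of the reads on the gene in ONC. With uniquely mapped exon reads alone the log2 fold change was 3.88.

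The gene model of Ecel1 in the files has 17 exons and lies on chromosome 1 from 87147655 to 87155027 (GRCm38). RefSeq places 2 long noncoding RNAs, Gm51638 and Gm33292, over the locus, from which unspliced reads on shared exons cannot be separated. Of the coding genes within 50 kb, Akp3 and Chrnd were listed at 0 RPKM in all samples and Alpi was at most 0.016. Prss56, a serine protease gene, had RPKM values of 3.66, 4.2 and 3.98 in sham and of 4.98, 6.53 and 6.69 in ONC.

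RefSeq extends Ecel1 upstream of the gene model counted here, as far as 87157085, and the promoter window is that of a start at 87156356, which lies 1329 bases upstream of the model. In this window, from 250 bases before that start to 50 after it, both strands were searched for 7 motifs of stress-responsive factors and general activators. None matched, including the AP-1 site TGANTCA, which 7.81% of 32851 promoter windows held, the CRE site TGACGTCA, which 1.79% held, and the GC box GGGCGG, which 35.7% held. The windows of Edn2, Edn3 and Ednra matched none of the 7 motifs either. A missing match says only that these letters are not in the window searched.

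Genes whose pattern over the 6 samples was most like that of Ecel1 were sought among 11806 genes with a mean RPKM above 1, by Pearson's r of log2 TMM-normalized CPM. The 5 nearest were Gm13889 (r = 0.998), Atf4 (r = 0.995), Tmem237 (r = 0.995), Suv39h2 (r = 0.995) and Sars (r = 0.993). With 6 samples in 2 groups such values are easily reached, and 140 genes had an r above 0.95, so the list is a description only. Atf4, a transcription factor of the amino acid and stress response, had 4270 to 4776 exon reads in sham and 7733 to 7974 in ONC. Sars, the cytosolic seryl-tRNA synthetase, had 2314 to 2648 exon reads in sham and 4264 to 4567 in ONC. Gm13889, a gene of unnamed function, had 285 to 434 in sham and 1288 to 1388 in ONC. On the log2 scale the fold changes were 1.75 for Gm13889, 0.59 for Sars, 0.56 for Atf4, 0.43 for Suv39h2 and 0.07 for Tmem237, each smaller than that of Ecel1.

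For Edn1, the member with the next largest change among those with at least 10 exon reads in every sample of a group, genes near it in pattern were Llph (r = 0.999), Kif1c (r = 0.993), Igfbp4 (r = 0.986) and Man2c1 (r = 0.984). Kif1c, a kinesin motor gene, had RPKM values of 7.01, 5.99 and 6.25 in sham and of 6.93, 7.88 and 7.64 in ONC. As for Edn1, the lowest value was in sham replicate 2 and the highest 2 were in ONC replicates 2 and 3. The log2 fold changes were 0.16 for Llph, 0.10 for Kif1c, 0.10 for Igfbp4 and 0.06 for Man2c1, each smaller than that of Edn1. An r above 0.95 with Edn1 was reached by 53 genes, so this list too is a description only.

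Genes that act around the endothelin system were tested for a difference between the groups in the same edgeR fit, with p-values adjusted over all 13670 genes. Of 63 such genes 51 were tested, and 2 rose and 2 fell by the call above, against 1.66% of all tested genes called in either direction. The lists were chosen with earlier results of these data known, so their counts are a description. The median log2 fold change was -0.07 over the 51 and 0.01 over all tested genes.

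Of the genes that receptor signals pass through, 25 were tested, of which 2 fell, against 0.834% of all tested genes, and none rose. The median log2 fold change was -0.16. Rgs4, a regulator that shortens signals of the Gq and Gi classes of G protein, had RPKM values of 19.9, 23.7 and 20.8 in sham and of 14.7, 14.6 and 12.8 in ONC. Its log2 fold change was -0.73 (SE 0.08, edgeR adjusted p = 1.18e-05). Plcb1, a phospholipase activated by Gq, had RPKM values of 3, 3.52 and 3.03 in sham and of 2.11, 2.21 and 2.03 in ONC, with a log2 fold change of -0.71 (SE 0.11, edgeR adjusted p = 0.000395). For both genes all ONC values lay below all sham values, while 28.8% of all tested genes had no overlap in RPKM in either direction. The call of Rgs4 was lost in limma on log2(RPKM + 1), at -0.58, and that of Plcb1 in limma on log2(RPKM + 0.1) and log2(RPKM + 1), at -0.56 and -0.42. Itpr1, a calcium release channel opened by inositol trisphosphate, passed the test but not the fold threshold (log2 fold change -0.31, SE 0.08, edgeR adjusted p = 0.0318). Plcb4, the phospholipase with the highest RPKM in the list, had a log2 fold change of -0.16, and Gnaq and Gna11, the G protein genes of the Gq class, had -0.15 and -0.01, none of them called. Of 9 ganglion cell markers 5 fell as well, against 0.834% of all tested genes, while Slc17a6, a glutamate transporter, had 15.9 to 17.9 RPKM in sham and 21.3 to 22.7 in ONC. The list had a summed RPKM of 432 to 451 in sham and 320 to 337 in ONC, and the part of ganglion cells in the values of Rgs4 and Plcb1 was not tested.

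None of the 7 tested genes of prohormone processing was called. Furin, which makes the first cut in the endothelin precursors, had a log2 fold change of -0.01 (SE 0.09), and Pcsk2, a convertase of neurons, had -0.44 (SE 0.10), past the threshold of the test (edgeR adjusted p = 0.0172) but short of 1.5-fold. Among the other M13 peptidases, Mmel1 was the one tested, with a log2 fold change of -0.10 (SE 0.25). Mme and Phex were below the filter, at RPKM values of 0.103 to 0.299 and 0.026 to 0.193 over the 6 samples, and Kel was listed at 0 in all of them.

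Of the 4 factors known from work on the Ecel1 promoter, 2 rose, against 0.827% of all tested genes. The paper had already reported Atf3 and Jun as raised in these samples, and the list was chosen with earlier results known. Nothing is therefore drawn from the count, and whether these factors act on Ecel1 was not tested. Atf3, an injury-induced transcription factor, had RPKM values of 4.93, 2.22 and 2.85 in sham and of 18.3, 17.4 and 17.7 in ONC, with a log2 fold change of 2.30 (SE 0.18, edgeR adjusted p = 7.95e-08). Jun, its partner in AP-1 dimers, had 10.2, 8.91 and 8.46 in sham and 18, 18.3 and 19 in ONC, with a log2 fold change of 0.88 (SE 0.08, edgeR adjusted p = 8.12e-07). Stat3, which carries cytokine signals, passed the test but not the fold threshold (log2 fold change 0.32, SE 0.08, edgeR adjusted p = 0.0258). Sp1, a general activator that binds GC boxes, had a log2 fold change of 0.03 (SE 0.07) and was not called. In Atf3, as in Ecel1, sham replicate 1 was the highest of the sham samples.

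Genes of the stress response in which Edn2 is known to take part gave no call. Stat3, which is also in this list, passed the test but not the fold threshold (log2 fold change 0.32, SE 0.08, edgeR adjusted p = 0.0258). Socs3, of the same list, had a log2 fold change of 0.25 (SE 0.27). Gfap, the intermediate filament of reactive glia, had a log2 fold change of 0.36 (SE 0.12, edgeR adjusted p = 0.126), and Fgf2, a survival factor for photoreceptors, had 0.12 (SE 0.35). Lif, the cytokine upstream of Edn2 in damaged retina, had 9 to 17 exon reads per sample and was not tested.

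Of the other vasoactive peptides, enzymes and receptors, 11 of 17 were tested and none was called. The largest differences were those of Ptgs1, a prostaglandin synthase (log2 fold change 0.84, SE 0.45), and Nppa, a natriuretic peptide (log2 fold change 0.56, SE 0.52). Nos3, the nitric oxide synthase of endothelium, had a log2 fold change of -0.23 (SE 0.15).

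**Figure D4:**
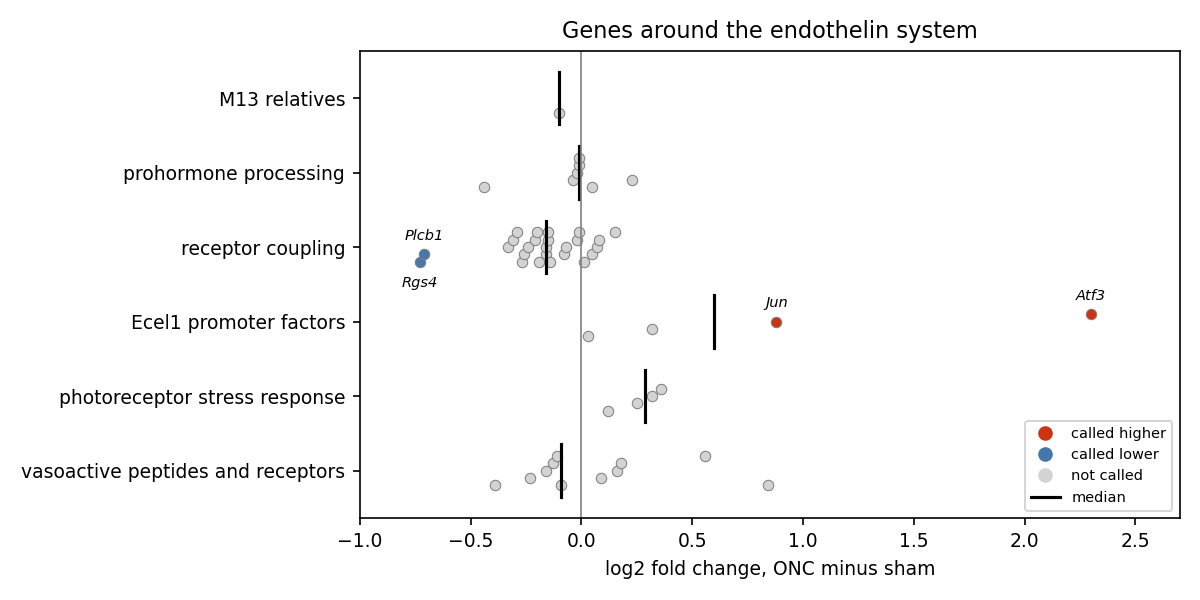
Log2 fold change (ONC minus sham) of each tested gene in the 6 lists around the endothelin system, colored where called, with a black bar at the list median (n = 3 in each group). Rgs4 and Plcb1 stand below the other receptor coupling genes, at -0.73 and -0.71, and Atf3 and Jun stand at 2.30 and 0.88.

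Marker sums of some other cells also differed between samples or groups. Summed over 6 lens genes, RPKM was 41.7, 6.12 and 8.9 in the sham samples and 47.5, 42.6 and 53.8 in the ONC samples, so that sham replicate 1 was close to the ONC samples in this sum. Of the 5 lens genes tested 1 was called higher, the crystallin gene Cryaa, against 0.827% of all tested genes. Crygd was at 0 in sham replicate 2 and Lim2 in sham replicate 3. The 7 microglia and macrophage genes summed to 5.35 to 8.08 in sham and 10.1 to 10.6 in ONC, also highest among the sham samples in replicate 1. Of them 2 were called higher, against 0.827% of all tested genes. The groups overlapped in P2ry12, Tmem119, Cd68 and Aif1, and Aif1 had a log2 fold change of -0.32 (SE 0.64). The part of microglia in the change of Ecel1 was not tested. The 5 astrocyte genes summed to 11.3 to 14.4 in sham and 14.8 to 18.6 in ONC, with none of the 4 tested called. Among them only Gfap did not overlap between the groups in RPKM, at 4.35 to 6.06 in sham and 6.27 to 8.19 in ONC. Such a lack of overlap, in either direction, held for 28.8% of all tested genes. The 7 Muller glia genes summed to 880 to 1002 in sham and 967 to 1007 in ONC, which overlapped, and none was called. The part of either kind of glia in the values of Ednrb was not tested. Sham replicate 1 was the highest sham sample in 58.4% of the 113 genes called higher, against 33.1% of all tested genes. The change of Ecel1 was larger without this sample, as given above, and that of Atf3 rose to 2.66 on the log2 scale.

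The sums of the vessel markers overlapped between the groups. The 9 endothelial genes summed to 40.7 to 46.6 RPKM in sham and 41.5 to 49.9 in ONC. The highest sham value was that of replicate 2, in which Edn1 was lowest, at 11 exon reads. The part of endothelium in the values of Edn1 was not tested. The 8 mural cell genes summed to 12 to 14.7 in sham and 12.7 to 14.6 in ONC. Single genes of low level varied more, such as Cdh5, an adhesion molecule of endothelium, at 0.382 to 1.45 RPKM over the 6 samples. None of the tested genes of these 2 lists was called.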

How the data were processed

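Libraries were made with the TruSeq RNA kit and sequenced as read pairs on a HiSeq2000. Mapping was done by the authors in CLC Genomics Workbench 6.0.1, with up to 2 mismatches, who deposited counts per gene without normalization, an intact pair counting as 1. They also deposited RPKM values, relative to all reads on genes, introns included, and the exon length and exon number of each gene as other columns. The labels name mm9, while the gene positions are those of GRCm38. Coding bases from NCBIM37 transcripts were matched by symbol for the 3 ligands, the 3 peptidases and their M13 relatives. RefSeq promoter windows (GRCm38.p6) were matched for all 8 genes.

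Total exon reads were compared with edgeR 4.0.16 in R 4.3.3 (TMM normalization, quasi-likelihood test, condition as the only term, 3 against 3) over genes with a mean RPKM above 0.3 in either group, with Benjamini-Hochberg adjustment. Called genes passed an adjusted p of 0.1 and differed by more than 1.5-fold. The SE is the log2 fold change divided by the square root of F. The test was first checked on simulated counts. Counting error was not given intervals of its own. Nothing in the labels beyond the pooling describes the replicates, so errors cover the spread between pools.

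Named are all 8 genes, every called gene of the 6 surrounding lists, genes of those lists that illustrate a role, and the 5 genes most like Ecel1 and Edn1, of which 1 is not reported here. The illustrating genes were chosen after their values were seen. The 8 genes, the lists and the marker lists were chosen with earlier results of these data known. Alternatives were other size factors, scaling by all reads on genes, the DESeq2 1.42.0 Wald test, limma 3.58.1 on log2(RPKM + 0.1) or log2(RPKM + 1), other filters, unique or whole-gene reads, a block for replicate number, and leaving out each sample. Replicate numbers of ONC and sham were not treated as pairs. Python 3.11.15 with pandas 2.3.3 and matplotlib 3.10.9 was used for summaries and figures.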

Additional observations from a re-analysis of the deposited data

How the results depend on the processing

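For Ecel1, selected on its change, the log2 fold change ran from 2.43, where limma was run on log2(RPKM + 1), to 4.51 without sham replicate 1, and from 3.65 to 4.51 over the fits without 1 sample. Edn1 ranged from 0.15 to 0.89, Edn2 from -0.19 to 0.30, Edn3 from 0.16 to 1.41, Ednra from -0.66 to 0.21, Ednrb from 0.05 to 0.31 and Ece1 from -0.27 to 0.00. Ece2 moved to -0.07 with scaling by all reads on genes, to -0.07 in limma on log2(RPKM + 0.1) and to -0.06 in limma on log2(RPKM + 1), which share the divisor of RPKM. That scaling moved the median log2 fold change of all tested genes from 0.01 to 0.13, and the share of calls that were higher in ONC from 49.8% to 75.1%, while with whole-gene reads this share was 32.4%. The number of genes called, 227, became 350 with this scaling and 349 with whole-gene reads, and ranged from 153 to 353 over the fits without 1 sample, the highest without ONC replicate 1; the cause was not tested. The 4 called genes of the surrounding lists became 2 in limma on log2(RPKM + 1), where Plcb1 (-0.42) and Rgs4 (-0.58) were lost, and ranged from 4 to 5 over the fits without 1 sample. Plcb1 was also lost in limma on log2(RPKM + 0.1), at -0.56, while Atf3 and Jun were called in all 16. With the replicate number as a block 222 genes were called, and the log2 fold change of Ecel1 was 3.94. Deviations of same-numbered samples from their group means correlated at -0.047, -0.033 and 0.003, and those of unlike-numbered samples at -0.031 to 0.066. With 3 samples in each group, these values cannot show whether same-numbered samples were handled together. Depth limits Edn3, Ednra and Edn1, which had as few as 1, 10 and 11 exon reads in a sample.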
